A study of Mus musculus with 6 samples.

Results

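Nlrp4a, Nlrp4b, Nlrp4c, Nlrp4e, Nlrp4f, Nlrp9a, Nlrp9b, Nlrp9c and Nlrp14 are members of the NLRP family that mouse oocytes express. They were taken by gene name from the deposited expression table, and all 9 were found among its 53023 genes, with 5 Nlrp4 genes, 3 Nlrp9 genes and Nlrp14. Transcripts were measured by RNA-seq in ICR mouse embryos at the two-cell stage, 28 hours post insemination (hpi). There were 3 groups of 2 libraries, and each library was made from 5 pooled embryos. The non-injection group received no mRNA. The other groups were injected into the cytoplasm at 1.5 to 3 hpi with 100 ng/µl of HA-tagged PIASy-WT or PIASy-Mut mRNA. The paper describes selecting injected zygotes by fluorescence at 9 hpi before culture to blastocysts, and does not restate it for RNA-seq. PIASy, encoded by Pias4, is an E3 ligase that attaches the small protein SUMO to other proteins, and PIASy-Mut carries the C335F change in its RING finger domain. The comparison of PIASy-WT with PIASy-Mut therefore bears on the ligase function but does not isolate it. In the paper PIASy-WT lay mainly in nuclei, whereas PIASy-Mut was found in the cytoplasm too. The non-injection group differs from both in the injection and, where applied, the selection.

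NLRP proteins generally combine an N-terminal pyrin domain, a central NACHT domain that binds nucleotide and C-terminal leucine-rich repeats. Some members build inflammasomes in immune cells, whereas a group of them is transcribed in the growing oocyte and its mRNA is carried into the embryo as maternal RNA. In rodents the oocyte-expressed Nlrp4 and Nlrp9 genes have multiplied by duplication, so that several closely related copies are expressed together. Nlrp14 stands alone in the mouse, and embryos of mothers that lack it arrest early.

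The copies are so alike that part of their sequence cannot be assigned to one gene. Of the annotated transcripts, the coding sequences within the Nlrp4 or the Nlrp9 genes were 75.8% to 93.9% identical over 13 pairs, with a median of 82.9%, and the most alike pair was Nlrp4c and Nlrp4e. Between the families, Nlrp14 included, identity was 47.7% to 54.3% over 23 pairs. The windows of 50 bases that follow are shown because 50 bases is the length of the first sequencing read. They lie in coding exons and are given 5′ to 3′ on the coding strand from the GENCODE M21 transcripts (build GRCm38, mm10). In the most alike Nlrp9 window, capitals mark bases that differ from Nlrp9c. Nlrp9a lies at chr7:26557626-26557675 (+), Nlrp9b at chr7:20023507-20023556 (+) and Nlrp9c at chr7:26385436-26385485 (-).
Nlrp9a: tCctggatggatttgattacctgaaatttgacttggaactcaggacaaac
Nlrp9b: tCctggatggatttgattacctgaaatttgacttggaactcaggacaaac
Nlrp9c: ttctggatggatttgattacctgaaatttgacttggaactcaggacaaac

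Nlrp9a and Nlrp9b cannot be told apart by a read of this window, and Nlrp9c differs from both by 1 base. The longest stretch without a difference in the coding sequence was 129 bases for Nlrp9a and Nlrp9b, 113 bases for Nlrp9b and Nlrp9c, and 84 bases for Nlrp9a and Nlrp9c. A window of median likeness is shown to give the more usual case, again with capitals for bases that differ from Nlrp9c. It lies at chr7:26562459-26562508 (+) in Nlrp9a, chr7:20028468-20028517 (+) in Nlrp9b and chr7:26380519-26380568 (-) in Nlrp9c, and 40 of its 50 positions were the same in all 3 genes.
Nlrp9a: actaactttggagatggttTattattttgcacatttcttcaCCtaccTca
Nlrp9b: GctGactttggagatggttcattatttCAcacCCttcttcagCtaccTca
Nlrp9c: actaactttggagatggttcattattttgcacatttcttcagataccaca

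The corresponding median window of the Nlrp4 genes shows 5 copies side by side, with capitals for bases that differ from Nlrp4f. The positions are chr7:26449925-26449974 (+) for Nlrp4a, chr7:10714812-10714861 (+) for Nlrp4b, chr7:6066057-6066106 (+) for Nlrp4c, chr7:23321045-23321094 (+) for Nlrp4e and chr13:65194828-65194877 (-) for Nlrp4f.
Nlrp4a: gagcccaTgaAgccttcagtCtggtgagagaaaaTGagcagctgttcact
Nlrp4b: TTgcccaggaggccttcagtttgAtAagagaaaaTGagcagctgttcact
Nlrp4c: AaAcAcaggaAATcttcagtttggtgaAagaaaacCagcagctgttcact
Nlrp4e: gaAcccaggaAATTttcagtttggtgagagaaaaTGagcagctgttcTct
Nlrp4f: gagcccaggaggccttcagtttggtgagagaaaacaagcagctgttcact

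All 5 copies had the same base at 34 of these 50 positions, and each of the other 4 copies differed from Nlrp4f by 5 to 8 bases. The authors counted only uniquely mapped reads, so a fragment that lies wholly in shared sequence is not counted for either gene. Sharing was therefore measured over all exons as the percent of the 50-base sequences of a gene that also occur in another annotated gene. It was 36.7% for Nlrp4e, 10.7% for Nlrp4c, 7.79% for Nlrp9b, 6.07% for Nlrp9a, 5.95% for Nlrp4f, 2.63% for Nlrp4a and 2.61% for Nlrp9c. Nlrp4b and Nlrp14 shared none. At 25 bases, the length of the second read, the percentages rose to 58.8% for Nlrp4e and 28.9% for Nlrp4c, and Nlrp14 still shared none.

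Most of the shared sequence of Nlrp4e was not shared with the 9 genes. Each of 5 unprocessed pseudogenes on chromosome 7, Gm16443, Gm8486, Gm8685, Gm8728 and Gm4541, held 26.2% to 30.8% of its 50-base sequences, and Nlrp4c held 8.24%. These pseudogenes had at most 2 counted fragments in any library. Nlrp9a and Nlrp9c shared 50-base sequences with the other Nlrp9 genes alone. Nlrp9b also shared 2.31% with each of 4 processed pseudogenes (Gm18877, Gm4536, Gm4548 and Gm4574), which had no fragments, and 0.315% with each of 3 more, of which Gm4528 had at most 2 fragments in a library. Nlrp4f shared most with Nlrp4g, a transcribed pseudogene on chromosome 9, at 3.9% of its 50-base sequences.

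**Figure D1:**
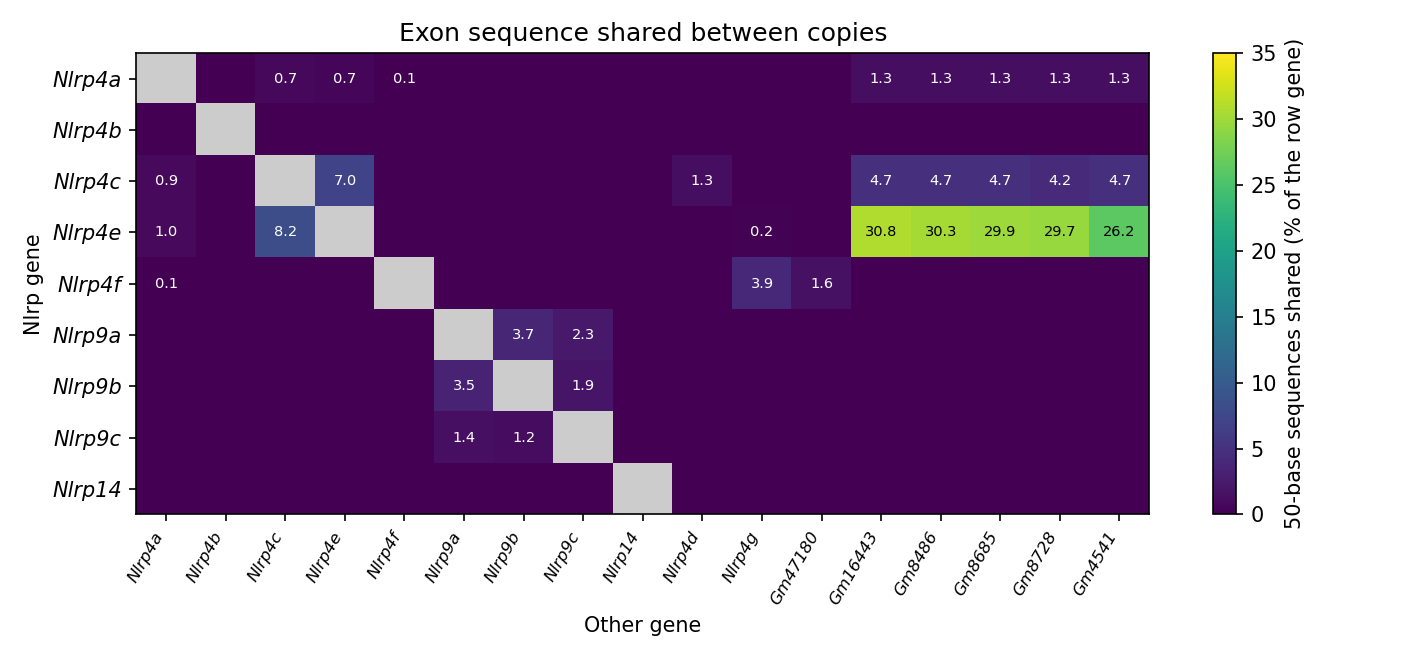
Percent of the 50-base exon sequences of each Nlrp gene (rows) that also occur in another gene (columns), with grey for the gene itself. Nlrp4e shares 26.2% to 30.8% with each of 5 pseudogenes, and the rows of Nlrp4b and Nlrp14 are at 0.

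Of the 9 genes, 8 lie on chromosome 7, and Nlrp4f lies on chromosome 13 (mm10, coordinates of the deposited table). From the centromere, the order on chromosome 7 was Nlrp4c (6045161 to 6105150), Nlrp4b (10687789 to 10730168), Nlrp9b (19991465 to 20073306), Nlrp4e (23301192 to 23362277), Nlrp9c (26322473 to 26403700), Nlrp4a (26435113 to 26476142), Nlrp9a (26535023 to 26575615) and Nlrp14 (107166990 to 107198102). Nlrp9c is on the minus strand and the other chromosome 7 genes are on the plus strand. Nlrp4f, at 65177111 to 65205977 of chromosome 13, is on the minus strand. Nlrp9c and Nlrp4a start head to head with 31.4 kb between them, and copies of both families are interleaved along the chromosome.

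Depth was recovered from the FPKM values, which corresponded to whole fragments for 100% of the values at a tolerance of 0.02. The libraries held 871663 to 1363928 fragments on genes, so 3 fragments equalled 2.20 to 3.44 CPM (fragments scaled to a library total of 1000000). The 9 genes had 11 to 3134 fragments per library, with 11 to 23 for Nlrp4c and 1243 to 3134 for Nlrp9c. Pias4 itself was measured at 610 and 579 FPKM with PIASy-WT, as against 862 and 611 with PIASy-Mut and 2.98 and 3.59 without injection, which separates injected from non-injected embryos but not PIASy-Mut from PIASy-WT. Of the 13 cumulus and granulosa cell genes, 8 had at most 3 fragments in every library, Inha, Inhba, Foxl2 and Amh were at 0, and the summed level was 18.3 to 27.5 CPM. Amhr2, a receptor of granulosa cells for anti-Müllerian hormone, was the 1 of 3 tested that passed, and it fell in PIASy-WT against non-injection, from 8.06 and 7.51 to 1.13 and 1.74 FPKM (log2 fold change -1.86, adjusted P = 0.0427). The log2 fold changes of the other genes tested were 1.05 for Tnfaip6 and 0.29 for Cyp19a1, and neither passed. Of the 8 sperm genes, 6 had at most 3 fragments and Tnp2 and Akap4 were at 0. The sperm genes summed to 2.91 to 5.74 CPM in non-injection and PIASy-Mut and to 13.6 and 13.9 CPM in PIASy-WT, of which Acrv1 made up 9.81 and 11.3 CPM, while Prm2 was at 3.02 and 1.74 CPM there, as against 4.4 and 1.77 CPM in non-injection. Acrv1 had a log2 fold change of 1.80 relative to non-injection (adjusted P = 0.0522) and 1.44 relative to PIASy-Mut (adjusted P = 0.0825) in limma, and voom called it higher than in non-injection but not than in PIASy-Mut. The 7 blood and immune genes summed to 2.29 to 16.5 CPM, with Cd3e and Hbb-bs at 0 and Itgam at 1 fragment in 1 library, and most of the sum came from the globin gene Hba-a1, at 2 to 16 fragments. Two-cell embryo genes were present in all libraries, with a summed level of 3343 to 3943 CPM in non-injection and PIASy-Mut against 2065 and 1513 CPM in PIASy-WT, and 3 of 18 tested fell against non-injection and 4 of 18 against PIASy-Mut, beside 5.76% and 6.01% of all genes. Of the 18, 8 and 6 were above 0, and of 17 tested with voom 6 and 7 were called lower, beside 19% and 18.8% of all genes, and 1, Usp17le, higher in each comparison. Leaving out any library of non-injection or PIASy-WT left 0 genes of the whole table lower in PIASy-WT than in either group, where all 6 libraries gave 928 and 968 in limma. The part of any of these lists in the values of the Nlrp genes was not tested.

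All 9 genes were detected in every library. In order of mean FPKM over the 6 libraries, they were Nlrp9c (315), Nlrp4f (154), Nlrp14 (143), Nlrp9a (112), Nlrp4e (50.5), Nlrp4a (36.4), Nlrp9b (14.9), Nlrp4b (9.95) and Nlrp4c (3.97). The ranges over all libraries overlapped for each pair of neighbours in this order except Nlrp4b and Nlrp4c. Compared within a library, the upper gene of a pair was above the lower one in 6 of 6 libraries for 5 of the 8 pairs, in 5 of 6 for Nlrp14 over Nlrp9a and for Nlrp9b over Nlrp4b, and in 4 of 6 for Nlrp4f over Nlrp14. The order was the same when the gene length was scaled to the unshared 50-base sequences, which raised the mean FPKM of Nlrp4e to 79.7. It was also the same on the length of the transcript with the longest coding sequence, where Nlrp9c reached 582, because the deposited length of Nlrp9c (5935 bases) is well over that transcript (3216 bases). Both settings were chosen after the data were seen.

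**Figure D2:**
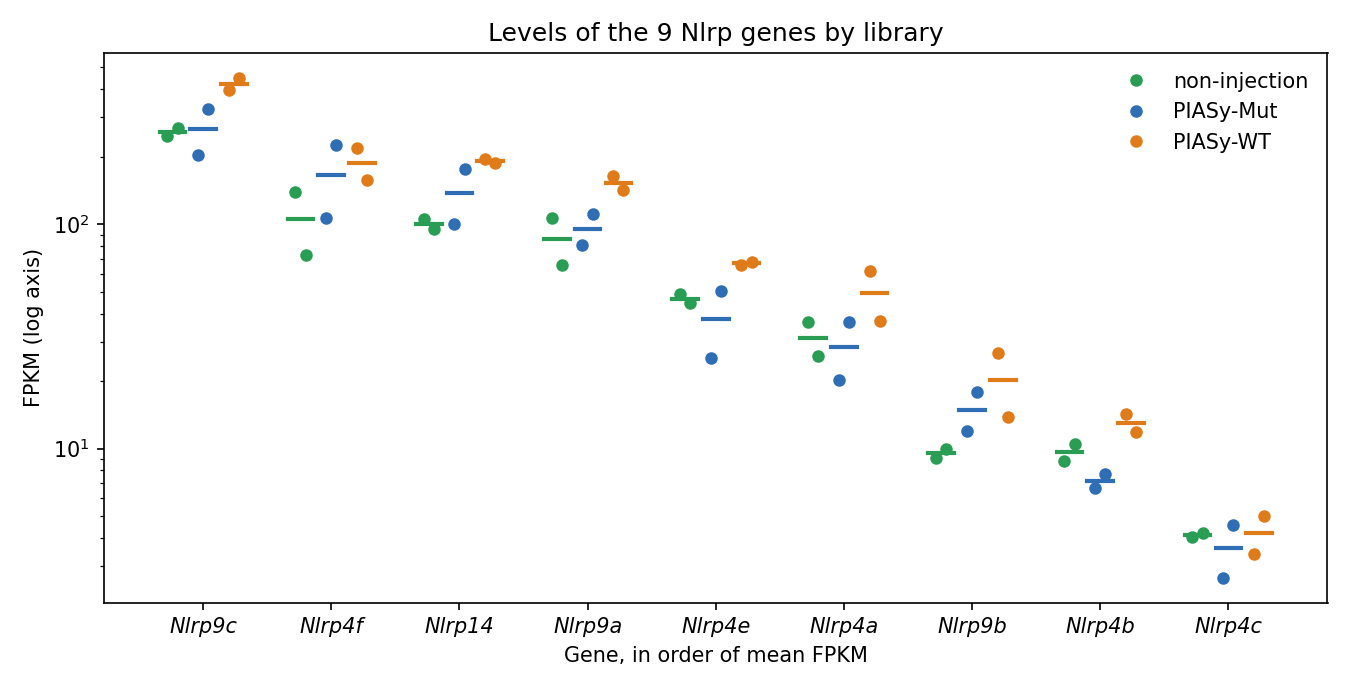
FPKM (log axis) of the 9 Nlrp genes in each library (points) with group means (bars), for non-injection, PIASy-Mut and PIASy-WT. Nlrp9c is highest in every library, and both PIASy-WT points lie above all 4 others for 6 of the 9 genes.

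Together the 9 genes took 5180 and 4968 CPM with PIASy-WT, 2522 and 4288 CPM with PIASy-Mut, and 3177 and 2811 CPM without injection. The sum was thus highest in both PIASy-WT libraries, and the PIASy-Mut libraries lay on either side of non-injection. The mean of PIASy-WT was 1.69-fold that of non-injection and 1.49-fold that of PIASy-Mut. Since the embryos were lysed in bulk and levels are shares of a library, a larger share of these mRNAs cannot be told apart from less of the other RNA.

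**Figure D3:**
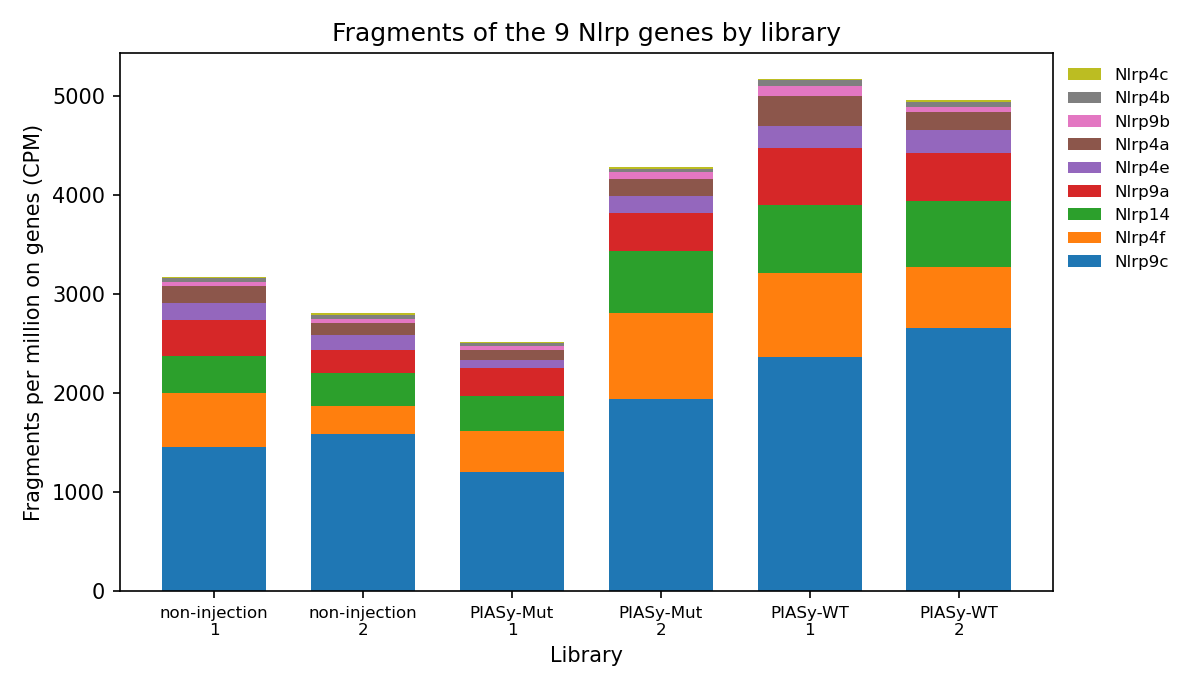
CPM for the 9 Nlrp genes, stacked by gene, in each of the 6 libraries. The stacks reach 5180 and 4968 CPM in PIASy-WT and 2522 and 4288 CPM in PIASy-Mut, and Nlrp9c makes up 45.2% to 56.5% of each.

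PIASy-WT libraries had the higher values for most of the genes, but no gene passed the test in a comparison. Both PIASy-WT libraries were above all 4 others for 6 of the 9 genes, Nlrp4a, Nlrp4b, Nlrp4e, Nlrp9a, Nlrp9c and Nlrp14, and the same held for 19.9% of the 16100 genes tested. Against non-injection alone this was so for 8 of 9 genes (29.8% of all genes), and against PIASy-Mut alone for 6 of 9 (25.5%). In limma on log2(FPKM + 1), with an adjusted P of at most 0.05 as the threshold, 0 of 9 passed in PIASy-WT against non-injection, where 1.03% of all genes were higher and 5.76% lower. Likewise 0 of 9 were higher than in PIASy-Mut, where 0.82% were higher and 6.01% lower. In each of these comparisons 2 of 9 had an unadjusted P under 0.05, beside 10.6% and 9.46% of all genes that did so in the same direction. Another test, voom on the recovered fragments, called 3 of 9 against non-injection (Nlrp9a, Nlrp9c and Nlrp14) and 1 of 9 (Nlrp9c) against PIASy-Mut, all higher, where it called 8.51% and 5.94% of 10193 genes higher and 19% and 18.8% lower. The paper uses n for biological replicates and gives 2 for the RNA-seq. The labels do not say whether the 2 libraries of a group came from separate cultures, so P-values measure only the spread between these libraries. An exact permutation test of 2 against 2 libraries cannot give a two-sided P below 0.333 and was not run.

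Both comparisons of PIASy-WT have the PIASy-WT libraries in common, so their values are given side by side. The log2 fold change had a median of 0.72 over the 9 genes against non-injection, where all genes had a median of 0.01 and an upper quartile of 0.65. Against PIASy-Mut it was 0.68, beside a median of -0.03 and an upper quartile of 0.59. All 9 were above 0 in both, as were 50.5% and 48.3% of all genes. The quartiles are those of single genes and do not measure how a median of 9 genes varies.

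The Nlrp9 genes are known from a duplicated group of oocyte transcripts, and Nlrp9b is also known from intestinal epithelium, where its protein takes part in an inflammasome together with the RNA helicase DHX9. Nlrp9c reached 398 and 449 FPKM with PIASy-WT, 203 and 327 with PIASy-Mut, and 246 and 268 without injection. Both PIASy-WT values were above all the others, and the PIASy-Mut values enclosed those of non-injection. On the log2 scale PIASy-WT differed by 0.72 from non-injection (SE 0.30, 95% interval -0.00129 to 1.44, adjusted P = 0.178) and 0.71 from PIASy-Mut (SE 0.30, interval -0.01 to 1.43, adjusted P = 0.183). The call depended on the libraries fitted, as it passed against non-injection when the fit held only those 4 libraries (adjusted P = 0.0355), without PIASy-Mut replicate 1 (0.0388) and without PIASy-Mut replicate 2 (0.0400), with the same fold change in all 3. These fits called 7.25%, 5.84% and 5.51% of all genes higher, compared with 1.03% with all 6 libraries. Without PIASy-Mut replicate 2 it also passed against PIASy-Mut (log2 fold change 1.06, adjusted P = 0.0256), in a fit that called 6.63% of all genes higher. Without PIASy-Mut replicate 1 it was 0.37 and did not pass (adjusted P = 0.331).

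Nlrp9a was measured at 164 and 142 FPKM with PIASy-WT, as against 80.7 and 111 with PIASy-Mut and 106 and 66.0 without injection. Here too PIASy-WT did not overlap with the other groups, which overlapped with each other. PIASy-WT differed on the log2 scale by 0.86 from non-injection (SE 0.32, 95% interval 0.08 to 1.64, adjusted P = 0.148) and 0.68 from PIASy-Mut (SE 0.32, interval -0.10 to 1.47, adjusted P = 0.228).

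Nlrp9b reached 26.7 and 13.8 FPKM with PIASy-WT, 12.0 and 17.9 with PIASy-Mut, and 9.06 and 9.97 without injection. Non-injection was the lowest group without overlap, while the PIASy-Mut values overlapped with those of PIASy-WT. Relative to non-injection its log2 fold change of 0.95 was the largest of the 9 (SE 0.40, 95% interval -0.02 to 1.92, adjusted P = 0.184), and relative to PIASy-Mut it was 0.37 (SE 0.40, interval -0.60 to 1.34, adjusted P = 0.575). Without PIASy-WT replicate 1, the higher of the pair, the latter turned to -0.0814.

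Nlrp9c gave 77.9% to 85.6% of the Nlrp9 fragments in each library, Nlrp9a 12.4% to 19.9% and Nlrp9b 1.60% to 3.28%. The family as a whole had 3036 and 3209 CPM with PIASy-WT, 1530 and 2391 CPM with PIASy-Mut, and 1865 and 1855 CPM without injection. Counting the family together is insensitive to fragments exchanged among its copies but does not restore those left uncounted in shared sequence. Counted so, PIASy-WT again did not overlap with either group and was 1.68-fold non-injection and 1.59-fold PIASy-Mut.

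The Nlrp4 genes form the larger family. Nlrp4e is known to be needed for preimplantation development, from knockdown in zygotes. Nlrp4f, the copy outside chromosome 7, was measured at 219.7 and 157 FPKM with PIASy-WT, as against 107 and 226 with PIASy-Mut and 139 and 72.7 without injection. The highest value of all was in PIASy-Mut, and only non-injection and PIASy-WT did not overlap. Its standard error was the largest of the 9, with a log2 fold change of 0.88 relative to non-injection (SE 0.48, 95% interval -0.29 to 2.04, adjusted P = 0.282) and 0.26 relative to PIASy-Mut (SE 0.48, interval -0.91 to 1.42, adjusted P = 0.765). Without PIASy-Mut replicate 1 the latter was -0.28.

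Nlrp4e reached 65.7 and 68.1 FPKM with PIASy-WT, 25.4 and 50.6 with PIASy-Mut, and 48.7 and 44.5 without injection. Both PIASy-WT values were the highest, and PIASy-Mut enclosed non-injection. On the log2 scale PIASy-WT differed by 0.51 from non-injection (SE 0.36, 95% interval -0.35 to 1.38, adjusted P = 0.390) and 0.88 from PIASy-Mut (SE 0.36, interval 0.01 to 1.75, adjusted P = 0.177). Without PIASy-Mut replicate 2 the latter was 1.36, and without replicate 1 it was 0.39, each with 1 library left in PIASy-Mut. As given with the sequences, 36.7% of its 50-base exon sequences are shared, and its level depends on how these are treated.

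Nlrp4a was measured at 61.9 and 37.2 FPKM with PIASy-WT, as against 20.2 and 36.5 with PIASy-Mut and 36.7 and 25.8 without injection. PIASy-WT was above the other groups, but its lower library exceeded the next value, in non-injection, only slightly. PIASy-WT differed on the log2 scale by 0.63 from non-injection (SE 0.41, 95% interval -0.37 to 1.63, adjusted P = 0.365) and 0.80 from PIASy-Mut (SE 0.41, interval -0.20 to 1.80, adjusted P = 0.269).

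Nlrp4b, which shares no 50-base sequence with another gene, reached 14.3 and 11.8 FPKM with PIASy-WT, 6.69 and 7.66 with PIASy-Mut, and 8.82 and 10.4 without injection. No groups overlapped, with PIASy-Mut lowest and PIASy-WT highest. On the log2 scale PIASy-WT differed by 0.40 from non-injection (SE 0.29, 95% interval -0.32 to 1.12, adjusted P = 0.415) and 0.78 from PIASy-Mut (SE 0.29, interval 0.06 to 1.50, adjusted P = 0.153).

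Nlrp4c was measured at 3.39 and 4.99 FPKM with PIASy-WT, as against 2.66 and 4.58 with PIASy-Mut and 4.02 and 4.19 without injection. The 3 groups overlapped, and this gene alone of the 9 had no PIASy-WT library pair above non-injection. PIASy-WT differed on the log2 scale by 0.01 from non-injection (95% interval -0.95 to 0.97, adjusted P = 1.00) and 0.18 from PIASy-Mut (95% interval -0.78 to 1.14, adjusted P = 0.800). It had 11 to 23 fragments per library. Its interval against non-injection includes the changes measured for Nlrp9c and Nlrp14, and a difference between these genes was not tested.

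Nlrp4f gave 45.3% to 68.5% of the Nlrp4 fragments, Nlrp4e 13.5% to 24.4%, Nlrp4a 13.8% to 20.6%, Nlrp4b 2.70% to 7.55% and Nlrp4c 0.936% to 2.71%. Summed over the family, the level was 1451 and 1093 CPM with PIASy-WT, 638 and 1276 CPM with PIASy-Mut, and 938 and 621 CPM without injection. PIASy-WT was above non-injection (1.63-fold) but overlapped with PIASy-Mut (1.33-fold), unlike the Nlrp9 sum. Nlrp4f, the largest part of this sum, and Nlrp4c overlapped with PIASy-Mut, whereas Nlrp4a, Nlrp4b and Nlrp4e did not. Nlrp9b overlapped as well, and a difference between the families was not tested.

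Nlrp14 is a maternal-effect gene. It reached 196 and 188 FPKM with PIASy-WT, 100.0 and 176 with PIASy-Mut, and 106 and 94.8 without injection. PIASy-WT did not overlap with the other groups, and PIASy-Mut replicate 2 was close to it. On the log2 scale PIASy-WT differed by 0.94 from non-injection (SE 0.32, 95% interval 0.17 to 1.70, adjusted P = 0.121, the lowest of the 9) and 0.53 from PIASy-Mut (SE 0.32, interval -0.24 to 1.30, adjusted P = 0.334). Like Nlrp9c, it passed against non-injection when only those 4 libraries were fitted (adjusted P = 0.0227), without PIASy-Mut replicate 1 (0.0245) and without PIASy-Mut replicate 2 (0.0250). Against PIASy-Mut the log2 fold change was 0.94 without PIASy-Mut replicate 2 and 0.13 without PIASy-Mut replicate 1, each with 1 library left in that group. Nlrp14 has no 50-base or 25-base sequence in common with another annotated gene, and sequence outside the annotation was not examined.

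**Figure D4:**
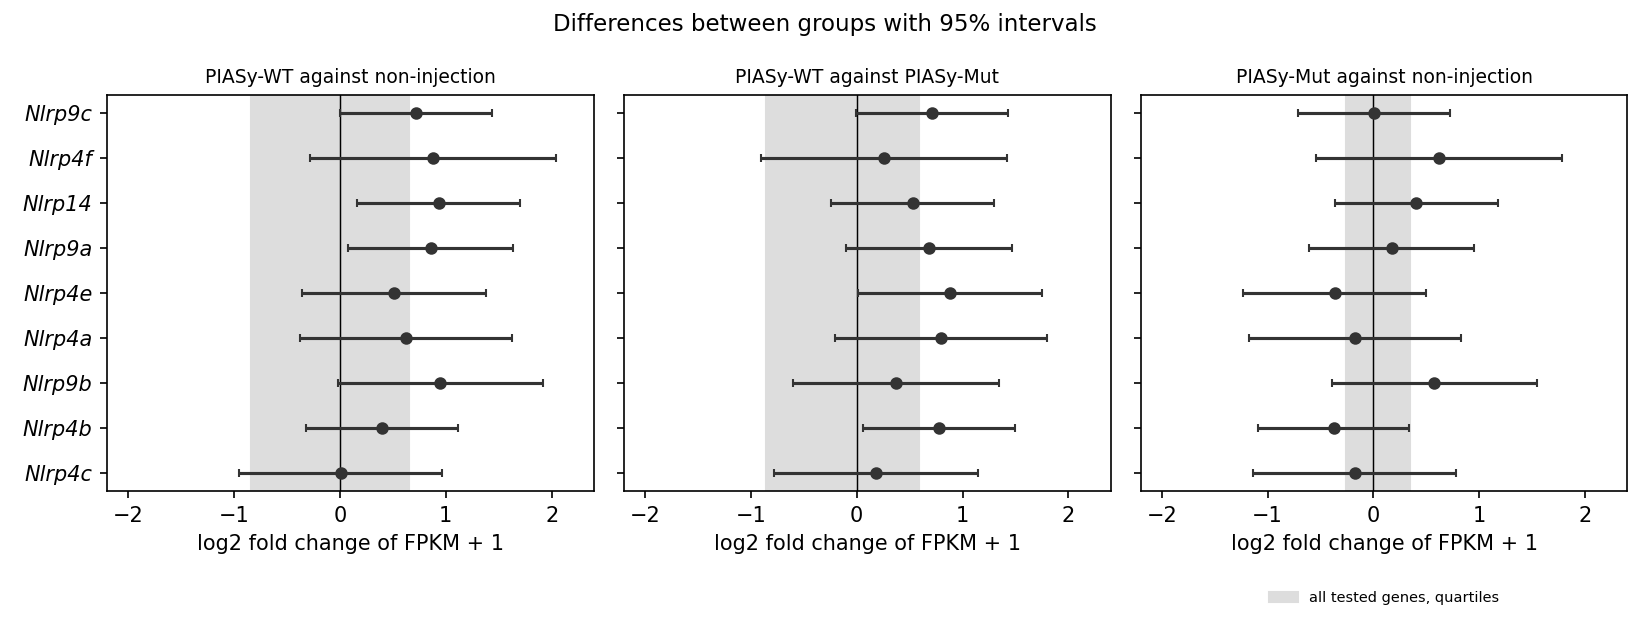
Log2 fold changes of FPKM + 1 for the 9 Nlrp genes (points) with 95% intervals from limma, in 3 comparisons, and the quartiles of all 16100 tested genes (grey). Points lie above 0 for all 9 genes in both PIASy-WT comparisons and for 5 of 9 in PIASy-Mut against non-injection, and most intervals include 0.

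No difference between PIASy-Mut and non-injection passed the test for these genes. The log2 fold changes were -0.38 for Nlrp4b, -0.37 for Nlrp4e, -0.18 for Nlrp4c, -0.17 for Nlrp4a, 0.00 for Nlrp9c, 0.17 for Nlrp9a, 0.40 for Nlrp14, 0.57 for Nlrp9b and 0.62 for Nlrp4f. Their median was 0.00, beside 0.04 for all genes, and 0 of 9 passed or had an unadjusted P under 0.05, where 0.00621% of all genes were called higher and 0% lower and 4.46% had an unadjusted P under 0.05 in either direction, with 2.37% of all genes in the higher direction (adjusted P = 1.00 for each of the 9 genes). voom called 0 of 9 (0.0196% of all genes higher). Both PIASy-Mut libraries were above both non-injection libraries for Nlrp9b alone, 1 of 9, as for 15% of all genes. The 95% intervals ran from -1.23 to 1.78 over the 9 genes, and each of them included 0.

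The spread within PIASy-Mut was large. PIASy-Mut replicate 2 was above replicate 1 for 9 of 9 genes, by 1.15-fold to 2.11-fold with a median of 1.72-fold, whereas 46.8% of all tested genes were higher in replicate 2. The other groups gave median ratios of 0.91 for non-injection and 0.86 for PIASy-WT. PIASy-Mut replicate 1 had the lowest value of the 6 libraries for 5 of the 9 genes. Leaving out PIASy-Mut replicate 1 lowered the median log2 fold change of PIASy-WT against PIASy-Mut from 0.68 to 0.37, and leaving out replicate 2 raised it to 0.91.

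Other genes of the same pathways gave a context for these values. Of 5 relatives with deposited values, namely Nlrp4g, Nlrp4d, Nlrp2, Nlrp5 and Nlrp5-ps, 4 were tested in limma. In the comparisons of PIASy-WT 0 passed, with 0 at an unadjusted P under 0.05, while voom tested 3 and called 1, Nlrp4g, higher in each. With voom 8.51% and 5.94% of all genes were called higher and 19% and 18.8% lower, which are the shares for the lists below too. Nlrp5, which encodes the MATER protein of the subcortical maternal complex, was measured at 18.4 and 14.4 FPKM with PIASy-WT, as against 18.2 and 18.5 with PIASy-Mut and 10.1 and 9.85 without injection. Here both injected groups were above non-injection. Of the 7 genes of the subcortical maternal complex, a protein assembly of the oocyte cortex needed for early cleavage, 7 were tested and 0 passed in limma (0 and 1 at an unadjusted P under 0.05, beside 28.2% and 27.7% of all genes in either direction, and 0 and 1, Zbed3, called higher with voom), with a median log2 fold change of 0.31 relative to non-injection and -0.04 relative to PIASy-Mut.

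Among 17 other NLR genes, many of which act in innate immunity, only 5 were expressed highly enough to be tested. These were Nlrp3, Nlrp12, Nlrc4, Naip1 and Ciita, and 0 passed in either comparison of PIASy-WT in limma. At an unadjusted P under 0.05 there were 2 against non-injection and 1 against PIASy-Mut, again beside 28.2% and 27.7%, and voom called Naip1 higher and Nlrp12 lower against non-injection and Nlrp12 lower against PIASy-Mut. Naip1, a sensor of bacterial proteins, stood at 8.45 and 10.7 FPKM with PIASy-WT, 2.27 and 7.87 with PIASy-Mut, and 2.91 and 1.76 without injection. PIASy-WT differed on the log2 scale by 1.68 from non-injection (SE 0.55, adjusted P = 0.113) and 0.96 from PIASy-Mut (adjusted P = 0.311). Against non-injection the other tested NLR genes were below 0, at -1.32 for Nlrp12, -1.16 for Ciita, -1.14 for Nlrp3 and -0.07 for Nlrc4, and the median of the 5 was -1.14. Against PIASy-Mut their median was -0.75, with Naip1 and Nlrc4 (0.12) above 0. Of 12 genes for inflammasome components and partners, 8 were tested and 0 passed in limma, with 4 and 1 at an unadjusted P under 0.05 beside the same shares of all genes, and voom called Nek7 higher and Dhx9 lower against non-injection. Pycard, the adaptor of most inflammasomes, and Il1b, one of their cytokine substrates, were listed at 0 in all 6 libraries, and Casp1, the inflammasome protease, was at an FPKM of 1.16 or less.

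Of 8 genes reported as partners of NLRP4, NLRP9 or NLRP14 proteins, 6 were tested and 1 passed in each comparison of PIASy-WT, beside 5.76% and 6.01% of all genes called lower. At an unadjusted P under 0.05 there were 2 and 1, beside 28.2% and 27.7% of all genes in either direction. With voom 2 were called lower against non-injection (Kpna2 and Dhx9) and 1, Kpna2, against PIASy-Mut, beside 19% and 18.8% of all genes. Kpna2, an importin that carries proteins into the nucleus, reached 46.5 and 31.8 FPKM with PIASy-WT, 159 and 118 with PIASy-Mut, and 121 and 123 without injection. It fell in PIASy-WT, with a log2 fold change of -1.64 relative to non-injection (SE 0.29, adjusted P = 0.0350) and -1.81 relative to PIASy-Mut (SE 0.29, adjusted P = 0.0293). Both calls were lost without any single library of non-injection or PIASy-WT, like those of all other lower genes, and the call against PIASy-Mut also without PIASy-Mut replicate 1. Dhx9 stood at 4.95 and 2.17 FPKM with PIASy-WT, 10.5 and 5.85 with PIASy-Mut, and 12.6 and 8.56 without injection, with no overlap of PIASy-WT and the others, and did not pass in limma (log2 fold change -1.39, adjusted P = 0.121 against non-injection).

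Of 29 other oocyte-expressed genes that were tested, 21 were above 0 relative to non-injection and 22 relative to PIASy-Mut, with median log2 fold changes of 0.33 and 0.54. At an unadjusted P under 0.05 there were 13 and 12, in either direction, beside 28.2% and 27.7% of all genes. Only Zp3, which encodes a zona pellucida glycoprotein, passed in limma, and it fell. In contrast, voom called 8 of 26 higher and 2 lower against non-injection, and 9 higher and 1 lower against PIASy-Mut, beside the 8.51% and 5.94% of all genes called higher. It stood at 25.1 and 22.4 FPKM with PIASy-WT, 80.6 and 74.6 with PIASy-Mut, and 70.9 and 73.5 without injection. On the log2 scale PIASy-WT differed by -1.57 from non-injection (SE 0.23, adjusted P = 0.0292) and -1.67 from PIASy-Mut (SE 0.23, adjusted P = 0.0240), and its calls were lost without the same libraries as those of Kpna2. Dppa3, a maternal factor that protects DNA methylation, had the highest mean level of the list and stood at 3681 and 2516 FPKM with PIASy-WT, 5444 and 4138 with PIASy-Mut, and 6001 and 5264 without injection (log2 fold change -0.88, SE 0.34, adjusted P = 0.153 against non-injection). Tcl1, a coactivator of the kinase AKT, came next, at 6666 and 5970 FPKM with PIASy-WT, 2327 and 3587 with PIASy-Mut, and 4382 and 3868 without injection (log2 fold change 0.62, SE 0.33, adjusted P = 0.275 against non-injection). Neither passed, and they lay in opposite directions.

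The genes most like the 9 in their pattern over libraries were found by Pearson's r with the mean of the centred log2 values of the 9 genes, among 6680 genes with enough fragments. They were Efcab14 (0.996), Gm30052 (0.996), Smarca2 (0.995), Zfp813-ps (0.994) and Ccng2 (0.993). These values rest on 6 libraries and are a description. Smarca2, the ATPase of a chromatin remodelling complex, was measured at 71.2 and 57.6 FPKM with PIASy-WT, as against 26.1 and 47.8 with PIASy-Mut and 35.7 and 31.8 without injection. Like the sum of the 9 genes, it was lowest in PIASy-Mut replicate 1 and highest in PIASy-WT. Of the 9 genes themselves, Nlrp14 was closest to their common pattern (0.95) and Nlrp4c least close (0.43), and each of the 9 takes part in the mean it is compared with.

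The upstream sequences of Nlrp9c and Nlrp9a are shown because they were the most alike pair. They are the 250 bases before the RefSeq start site (build GRCm38.p6), at chr7:26403701-26403950 (-) for Nlrp9c and chr7:26534773-26535022 (+) for Nlrp9a, 5′ to 3′. Capitals mark bases with no identical base opposite them when both are aligned, including ends that reach past the other window.
Nlrp9c: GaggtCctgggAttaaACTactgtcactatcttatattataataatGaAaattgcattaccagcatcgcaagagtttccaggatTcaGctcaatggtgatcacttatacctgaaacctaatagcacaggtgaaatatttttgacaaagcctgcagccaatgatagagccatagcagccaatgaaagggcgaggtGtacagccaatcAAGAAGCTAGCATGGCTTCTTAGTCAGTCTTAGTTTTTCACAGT
Nlrp9a: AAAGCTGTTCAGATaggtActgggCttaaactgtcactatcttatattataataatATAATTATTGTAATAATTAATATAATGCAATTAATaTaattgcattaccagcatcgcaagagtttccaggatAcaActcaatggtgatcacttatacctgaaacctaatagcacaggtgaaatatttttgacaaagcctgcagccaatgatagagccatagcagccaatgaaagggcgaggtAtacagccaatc

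Of the 203 bases that could be aligned, 96.1% were identical, which was the highest of the 28 pairs among the 8 genes with an upstream sequence in RefSeq. Nlrp4b and Nlrp4c followed with 72.9%, and the other pairs were at 39.3% to 52.4%. Nlrp9b was at 48.7% to Nlrp9a and 44.3% to Nlrp9c, while its coding sequence was 83.5% and 82.3% identical to theirs. Nlrp9a has an AT-rich stretch, in capitals, that Nlrp9c lacks. Its window held 2 matches to TAATTA and 2 to TAATTG, core letters of homeodomain protein sites, which did not overlap. Motifs were searched on both strands in windows from 250 bases before to 50 bases after the start. These were found in 5.29% and 8.0% of 32851 promoters. TAATTG also occurred once in Nlrp9b. GGATTA was found in Nlrp9c alone of the 8 genes (7.06% of promoters). The E-box letters CANNTG occurred in all 8 genes and in 72.3% of promoters. A match only describes the letters.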

How the data were processed

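Total RNA of 5 embryos per library was amplified with SMART-Seq v4 (11 cycles), made into Nextera XT libraries (13 cycles) and sequenced from both ends (50 and 25 bases). The authors trimmed reads below Q20 with trim_galore, aligned them to mm10 with STAR, counted uniquely mapped reads with featureCounts and deposited FPKM for 53023 genes. The annotation release and the use of strand are not given in the sources used here. The authors added ERCC spike-in RNA at lysis, but the deposited values list 0 spike-in entries, so levels are shares of a library.

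Samples were grouped by their labels. The deposited FPKM values were compared as log2(FPKM + 1), which understates changes of low genes, with limma 3.58.1 in R 4.3.3 (lmFit, eBayes with trend, all 6 libraries, no block) over the 16100 genes that reached an FPKM of 1 in 2 or more libraries, as all 9 members did, with Benjamini-Hochberg adjustment. Recovered fragments give counting precision only. Copies were compared with GENCODE M21 transcripts, whose exon lengths equal the deposited lengths of the 9 genes, and mafft 7.526. Upstream sequences are from RefSeq. The procedure was also run on simulated counts that gave all genes the same spread (dispersion 0.0386). No result here rests on that run. The members and lists were chosen with earlier results of these data known. The genes named are the 9 members, the 5 most similar genes, genes within 50 kb, Pias4 and, of each list, genes that passed or had high levels. Other listed genes are named where they were absent, low, tested without passing or called by voom. Pseudogenes that share sequence with the members are named as well. A correlation needed a mean of at least 20 fragments. Alternatives were other pseudocounts, filters, scalings and fits, a replicate block and leaving out each library. Sharing was measured against annotated transcripts only, and genome sequence outside them was used only for the upstream sequences.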

Additional observations from a re-analysis of the deposited data

How the results depend on the processing

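In the 2 comparisons of PIASy-WT, 0 of 9 members passed, and this held under other pseudocounts (0.1 and 5), other filters, quantile normalization, median-ratio scaling, no trend and the replicate block. Against non-injection, 2 passed in a fit of the 4 libraries compared and 3 with voom on recovered fragments, beside 7.25% and 8.51% of all genes called higher. Against PIASy-Mut, 1 passed with voom (5.94% of all genes) and 0 in the fit of 4 libraries (0% of 14510 genes). Leaving out 1 library leaves 1 in its group and takes the spread from the other groups, so no member calls are counted from such fits here. The cause was not tested.

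The direction turned for some members, none of which had passed. In PIASy-WT against non-injection this was Nlrp4c, at -0.00800 with voom and at -0.22 to 0.23 when 1 library was left out. In PIASy-WT against PIASy-Mut, leaving out 1 library gave -0.12 to 0.49 for Nlrp4c, -0.28 to 0.79 for Nlrp4f and -0.0814 to 0.83 for Nlrp9b. In PIASy-Mut against non-injection, it gave -0.58 to 0.24 for Nlrp4a, -0.48 to 0.13 for Nlrp4c, -0.85 to 0.12 for Nlrp4e, -0.17 to 0.51 for Nlrp9a, -0.34 to 0.35 for Nlrp9c and -0.000195 to 0.81 for Nlrp14, and Nlrp9c was also at -0.0857 with quantile normalization, -0.0496 with median-ratio scaling and -0.000245 with voom. Nlrp4c was not tested at a filter of 5.

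The numbers 1 and 2 of the libraries are not shown to pair them, as the correlation of same-numbered deviations was 0.00368 to 0.0851 over 16100 genes. The replicate block left 0 of 9 members passing in each comparison and took the genes higher in PIASy-WT from 166 to 89 relative to non-injection and from 132 to 67 relative to PIASy-Mut. Over all settings, these counts ran from 0 to 1047 and from 0 to 1019, those of lower genes (928 and 968) from 0 to 1998 and from 0 to 2032, and that of genes higher in PIASy-Mut (1) from 0 to 2. Quantile normalization shifted the median of all genes to 0.12 and 0.11, beside medians of 0.91 and 0.82 for the members. The log2 ratio of summed CPM in PIASy-WT against non-injection ran from 0.44 to 1.03 for Nlrp4 and from 0.71 to 0.86 for Nlrp9, and against PIASy-Mut from -0.00445 to 0.99 and from 0.39 to 1.03. The lower ends against PIASy-Mut came without PIASy-Mut replicate 1. Nlrp4c had the fewest fragments, 11 to 23 per library, and so the least counting precision.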

Other observations

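Ceacam20, which encodes a cell adhesion molecule of the carcinoembryonic antigen family, ends 0.361 kb before the annotated span of Nlrp9b in the deposited table, on the same strand. The RefSeq start site used above for Nlrp9b lies further inside that span. It stood at 91.4 and 115 FPKM with PIASy-WT, 43.6 and 78.3 with PIASy-Mut, and 50.8 and 46.2 without injection. Both PIASy-WT libraries were above the other 4, and PIASy-Mut replicate 2 was above replicate 1. Nlrp9b also had PIASy-Mut replicate 2 above replicate 1, but its PIASy-WT values overlapped with PIASy-Mut. On the log2 scale PIASy-WT differed by 1.06 from non-injection (SE 0.34, adjusted P = 0.106 in limma) and 0.80 from PIASy-Mut (SE 0.34, adjusted P = 0.188). Of the other genes within 50 kb of a member, Nlrp5 lies 23.6 kb from Nlrp4e, and the vomeronasal and olfactory receptor genes around the members had at most 1 fragment in any library. In 4 further neighbours the PIASy-WT libraries were not both above the others. In the order non-injection, PIASy-Mut and PIASy-WT, Igsf23 beside Nlrp9b had 37 and 23, 13 and 10, and 32 and 19 fragments, and Gm6902 beside Nlrp4e had 32 and 9, 29 and 11, and 21 and 0. Rbmxl2 beside Nlrp14 had 9 and 27, 20 and 6, and 4 and 4 fragments, and Gm36445 beside Nlrp4f had 24 and 22, 25 and 18, and 17 and 15. The remaining genes within this distance that are not members had at most 10 fragments in any library. Gm45379, annotated inside Nlrp4b on the same strand, had 3 to 7 fragments per library. How fragments in both features were counted is not given in the sources used here.

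Nlrp4g, a transcribed unprocessed pseudogene on chromosome 9 (124348872 to 124356970, mm10), stood at 133 and 114 FPKM with PIASy-WT, 36.1 and 97.3 with PIASy-Mut, and 66.4 and 55.3 without injection, and PIASy-WT did not overlap with the other groups. PIASy-WT differed on the log2 scale by 1.01 from non-injection (SE 0.46, adjusted P = 0.216) and 1.04 from PIASy-Mut (SE 0.46, adjusted P = 0.210), both larger than that of any of the 9 members in that comparison. Gm47180, another pseudogene directly before it on the same strand, had 296 and 219 fragments with PIASy-WT, 63 and 106 with PIASy-Mut, and 155 and 97 without injection. Of the 50-base sequences of Nlrp4g, 7.72% also occur in the 9 members.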
